A study of Mus musculus with 12 samples.

Results

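The genes described here are 37 genes of glucose breakdown and of the cell's response to low oxygen, called glycolysis and hypoxia genes below. They were the rows of the authors' deposited gene tables whose Ensembl identifier maps to a symbol on the list, 37 of 36521 genes. The list holds 4 transporters of glucose or lactate, 17 enzymes of the pathway, 7 regulators of its flux, 2 hypoxia-inducible transcription factors and 7 further genes known as targets of hypoxia. RNA was sequenced from V6.5, an established mouse embryonic stem cell line, in 3 groups of 4 libraries. Tet1kd cells stably carried a pSUPER-puro plasmid that expresses a short hairpin RNA against Tet1, and Tet2kd cells carried the same plasmid with a hairpin against Tet2. Parental V6.5 cells carried neither, and no control hairpin or empty plasmid was among the groups. Tet1 and Tet2 encode enzymes that oxidize methylated cytosine in DNA. Both knockdown lines were electroporated, selected with puromycin on inactivated, puromycin-resistant feeder cells and picked as clones, and grown in puromycin again at later passages. How many clones stand behind the 4 libraries of a knockdown was not given in the sources used here, so an effect of plasmid, selection or clone cannot be told apart from that of the hairpin. All 3 groups were cultured in medium with serum and leukemia inhibitory factor. The oxygen level of the cultures was not stated. The labels number the libraries as biological replicates without saying whether these were separate cultures, so p-values measure the spread between these libraries.

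In glycolysis, glucose enters through facilitative transporters, is trapped by hexokinases and is broken down stepwise to pyruvate. Lactate dehydrogenase turns pyruvate into lactate, which leaves by monocarboxylate transporters, or pyruvate enters mitochondria through the pyruvate dehydrogenase complex, which pyruvate dehydrogenase kinases switch off. In low oxygen the prolyl hydroxylases of the EGLN family stop marking HIF alpha subunits for removal by the VHL ubiquitin ligase, and HIF dimers then raise many glycolytic genes and genes for angiogenesis and mitophagy. Mouse embryonic stem cells are known for a high glycolytic rate.

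HIF dimers bind a short core sequence, so promoters of these genes are shown first, taken from RefSeq on GRCm38.p6. Each window runs from 250 bases before to 50 bases after an annotated transcription start. It covers the proximal promoter and the first bases of the first exon. Bnip3, Ankrd37 and Pdk1 are shown as much-studied hypoxia targets, and Ldhb and Slc2a1 because they passed the test in the same direction in both knockdowns. Capitals mark ACGTG or GCGTG on either strand, so on the other strand they read CACGT or CACGC, and CACGTG counts on both. The Bnip3 window lies at chr7:138909457-138909756 on the minus strand, the Ankrd37 window at chr8:45999801-46000100 on the minus strand, the Pdk1 window at chr2:71872974-71873273 on the plus strand, the Ldhb window at chr6:142507908-142508207 on the minus strand and the Slc2a1 window at chr4:119108495-119108794 on the plus strand.
Bnip3: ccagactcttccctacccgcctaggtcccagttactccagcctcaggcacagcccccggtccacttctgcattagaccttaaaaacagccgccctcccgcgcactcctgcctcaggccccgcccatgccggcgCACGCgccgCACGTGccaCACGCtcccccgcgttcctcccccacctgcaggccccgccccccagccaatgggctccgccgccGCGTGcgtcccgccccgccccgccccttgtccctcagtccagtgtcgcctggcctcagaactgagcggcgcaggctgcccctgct
Ankrd37: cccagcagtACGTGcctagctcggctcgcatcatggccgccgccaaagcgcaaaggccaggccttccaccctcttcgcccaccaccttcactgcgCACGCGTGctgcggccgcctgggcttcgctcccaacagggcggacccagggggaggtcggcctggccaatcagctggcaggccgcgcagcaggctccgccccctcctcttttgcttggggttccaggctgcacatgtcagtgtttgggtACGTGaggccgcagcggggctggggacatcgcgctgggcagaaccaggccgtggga
Pdk1: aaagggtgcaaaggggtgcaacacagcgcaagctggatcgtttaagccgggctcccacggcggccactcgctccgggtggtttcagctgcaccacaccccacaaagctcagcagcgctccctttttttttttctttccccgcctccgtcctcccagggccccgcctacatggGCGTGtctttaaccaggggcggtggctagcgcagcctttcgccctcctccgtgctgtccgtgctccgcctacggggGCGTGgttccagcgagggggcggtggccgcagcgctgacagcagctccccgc
Ldhb: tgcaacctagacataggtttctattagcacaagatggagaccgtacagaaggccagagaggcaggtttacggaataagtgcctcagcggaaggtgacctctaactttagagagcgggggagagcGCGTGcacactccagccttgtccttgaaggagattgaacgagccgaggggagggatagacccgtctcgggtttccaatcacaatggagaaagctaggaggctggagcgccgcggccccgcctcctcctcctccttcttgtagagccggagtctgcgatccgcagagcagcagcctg
Slc2a1: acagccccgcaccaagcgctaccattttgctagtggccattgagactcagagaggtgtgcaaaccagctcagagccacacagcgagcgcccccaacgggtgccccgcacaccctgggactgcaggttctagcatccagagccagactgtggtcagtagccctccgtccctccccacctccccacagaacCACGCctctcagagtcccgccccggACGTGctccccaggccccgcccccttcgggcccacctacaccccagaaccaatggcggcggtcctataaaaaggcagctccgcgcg
The core was found 5 times in the Bnip3 window, 4 times in the Ankrd37 window, 2 times in the Pdk1 and Slc2a1 windows and 1 time in the Ldhb window. Pdk1 has another window, at chr2:71874654-71874953 on the plus strand, which held no match and is not shown. Of the 37 genes, 33 matched the promoter table. ACGTG or GCGTG stood in at least 1 window of 29 of these 33 genes (87.9%), against 12628 of all 27025 genes in the table (46.7%). By window, 37 of 47 windows of these genes held it, against 43.8% of all 32851 windows. Many of these genes are well expressed, and among all genes in the table with a mean of at least 100 normalized counts the share was 70.6%, against 26 of 29 of the glycolysis and hypoxia genes at that level (89.7%). ACGTG alone was in 19 of these 29 (65.5%), against 30.6% of the genes at that level. The Ldha promoter held the most matches, 7 in a single window, and the windows of Gpi1, Tpi1, Eno2 and Fbp1 held none. A match is a description of the letters only.

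The deposited gene tables give means of 4 libraries per group. Reads per library were recovered from the digits of these means, for 21223 of 21658 genes with reads in Tet1kd cells, 21023 of 21368 in Tet2kd cells and all 22004 in parental cells. Estimated depth, in units of M (mega) reads, was 15.8 to 39.7 M reads in Tet1kd libraries, 14.4 to 31.1 M in Tet2kd libraries and 14.6 to 31.6 M in parental libraries. The recovered libraries are lettered a to d from deepest to shallowest within a group, and the letters are not the replicate numbers of the labels. Libraries a and b of all groups deviated together from their group means, as did c and d. The hairpin targets followed the labels. Tet1 was at 5987 to 7255 normalized counts in Tet1kd libraries and 24174 to 28564 in parental libraries. Tet2 was at 4002 to 4472 normalized counts in Tet2kd libraries and 7873 to 8604 in parental libraries. Among 11 measured embryonic stem cell markers, all were present in every group, and the deposited means summed to 172446 in Tet1kd cells against 123768 in parental cells, and to 117190 in Tet2kd cells against 113651 in parental cells.

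Most of the glycolysis and hypoxia genes differed from parental in Tet1kd cells, in both directions, and few did in Tet2kd cells. The hairpin targets were not lowered alike. Mean Tet1 was 6600 normalized counts in Tet1kd libraries against 26223 in parental libraries. Mean Tet2 was 4194 in Tet2kd libraries against 8218 in parental libraries. In Tet1kd cells 17 of the 37 genes were higher and 8 were lower at an adjusted p under 0.05 in the authors' deposited table, 67.6% of them, and 12 passed in neither direction. Over all 23120 genes tested in that table, 30.4% passed, 15.2% higher and 15.3% lower. The share over all genes was larger among well-expressed genes, 49.6% of genes with a mean of at least 100 normalized counts (25.5% higher and 24.2% lower), and 23 of the 33 glycolysis and hypoxia genes at that level passed (69.7%). The median log2 fold change over the 37 genes was 0.14, against -0.03 over all genes. In Tet2kd cells 1 gene was higher, Ldhb, and 4 were lower in the authors' deposited table, 13.5% of the 37, against 7.14% of all 22949 genes tested there (3.85% higher and 3.29% lower). Of the genes with a mean of at least 100 in that table, 4 of 31 passed (12.9%), against 12.7% of all such genes (6.84% higher and 5.91% lower). The 4 lower genes were Slc2a1, Slc16a3, Fbp2 and Ndrg1, and the median over all 37 was -0.01, as it was over all genes tested. The Tet2kd counts depended on the test. The second deposited test called 4 of the 37 genes higher and 5 lower. Over all genes it called 4171 in either direction, against 1638 by the first. Both comparisons used the same 4 parental libraries. In bulk RNA, fewer cells of a kind and less RNA per cell cannot be told apart.

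**Figure D1:**
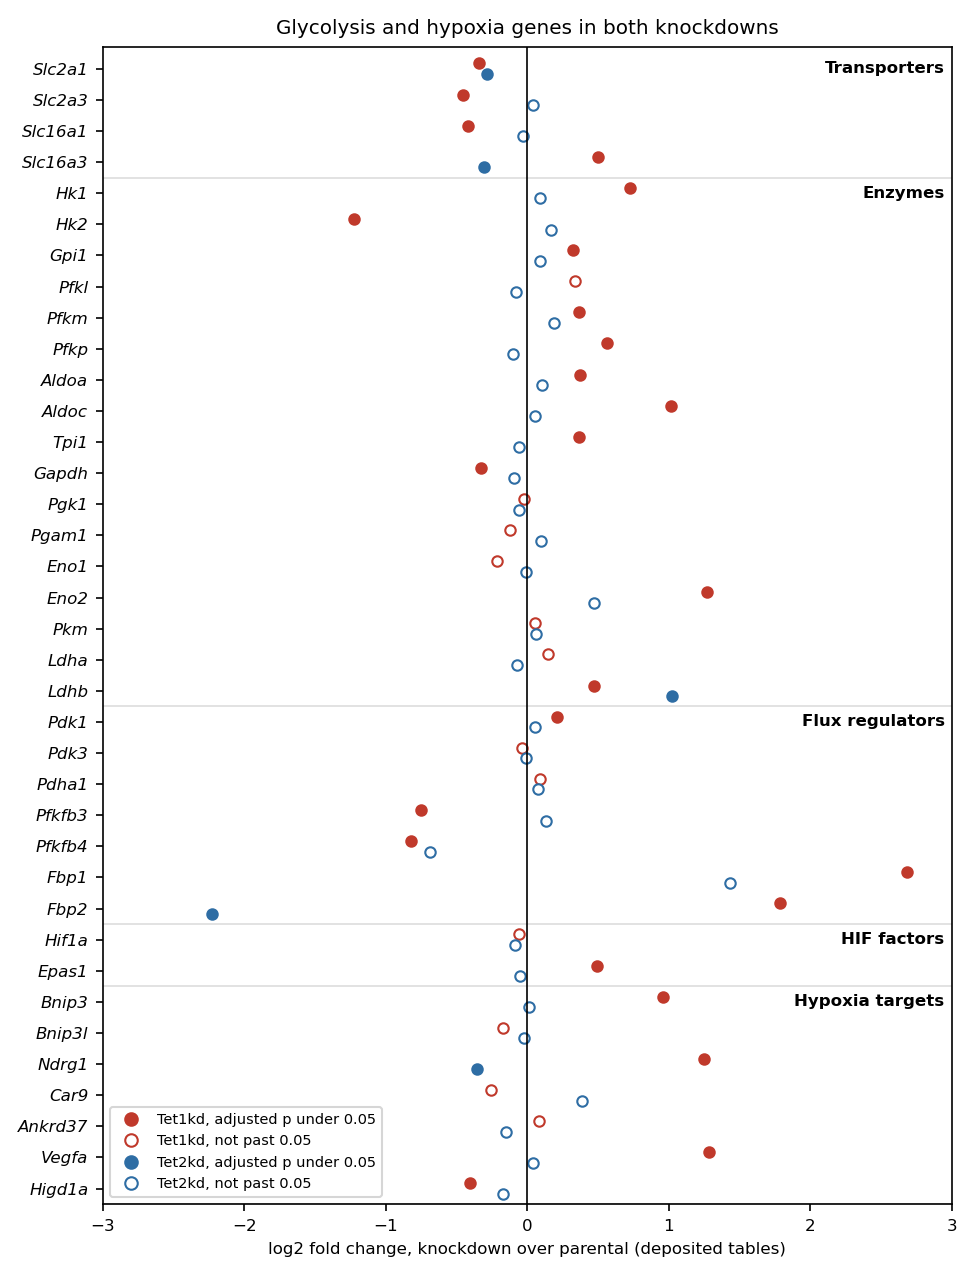
Log2 fold change over parental of each of the 37 genes in Tet1kd cells (red) and Tet2kd cells (blue), from the deposited tables, with genes grouped by role down the page. Filled points passed an adjusted p of 0.05: 25 genes in Tet1kd cells and 5 in Tet2kd cells.

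On a common scale over all 12 libraries, 31 of the genes could be recovered in every Tet1kd library, and in 15 of them all 4 Tet1kd libraries lay above all 4 parental libraries, while in 6 all lay below. Of all 14511 recovered genes with a mean of at least 10, 48.7% did not overlap, 24.3% above and 24.4% below. In Tet2kd libraries 3 of 33 genes lay wholly above and 3 wholly below the parental libraries, against 23.2% of the 14511 genes (11.8% above and 11.4% below). Between the 2 deeper and the 2 shallower libraries, the log2 difference from parental of the 23 called and recovered genes in Tet1kd cells varied by a median of 0.05 and by up to 0.55, for Fbp1. In Tet2kd cells it varied by a median of 0.07 over 5 genes and by up to 0.53, for Fbp2. These genes were called on the same libraries. Markers of another cell type moved with the groups. The summed level of 13 fibroblast markers, which feeder cells would carry, was 4576 to 5305 normalized counts in Tet1kd libraries, 8941 to 9897 in Tet2kd libraries and 7125 to 7962 in parental libraries. None of these markers was at 0 in any group. In Tet1kd cells 11 of 13 were lower (84.6%), and in Tet2kd cells 4 were higher and 2 lower (46.2%). The shares over all genes with a mean of at least 100 were 49.6% and 12.7%. Dcn, which encodes the matrix protein decorin, had a deposited mean of 7.71 in Tet1kd cells against 243 in parental cells, and 193 in Tet2kd cells against 223 in parental cells. The markers did not move alike. The median log2 fold change of the 13 in Tet1kd cells was -1.20, and 2 passed in neither direction. Col1a1, also on the list, had -0.31 in Tet1kd cells and 0.49 in Tet2kd cells in the authors' deposited tables. The part of these markers in the results below was not tested.

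Glucose carriers act at the start of the pathway and lactate carriers at its end. All 4 passed the test in Tet1kd cells, against 49.6% of all genes with a mean of at least 100. Both glucose transporters were lower. Slc2a1, the widely expressed glucose transporter GLUT1, had 7453, 8067, 7673 and 8171 normalized counts in Tet1kd libraries, 8097, 8334, 8349 and 8009.5 in Tet2kd libraries, and 9798, 9799, 9979 and 10228 in parental libraries. Both knockdown groups lay below every parental library. The authors' deposited table gave log2 fold changes of -0.34 in Tet1kd cells (adjusted p 0.00017) and -0.28 in Tet2kd cells (adjusted p 0.0102). Tested directly with limma, Tet1kd minus Tet2kd was -0.06 on the log2 scale (95% interval -0.14 to 0.02, adjusted p 0.163). Slc2a3, the high-affinity glucose transporter GLUT3, was the more abundant of the pair per kilobase of exon. Its deposited parental mean was 13967 normalized counts per kilobase, against 3170 for Slc2a1. Slc2a3 had 55193, 55746, 51009.5 and 51020.1 normalized counts in parental libraries, and its knockdown libraries were not recovered because of its high level. In the authors' deposited table its mean was 40439.5 in Tet1kd cells and 55297 in parental cells, a log2 fold change of -0.45 (adjusted p 1.83e-07). For Tet2kd cells the authors' deposited table gave means of 52131 in Tet2kd and 50776 in parental cells, with a log2 fold change of 0.04 that did not pass (adjusted p 0.967).

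The 2 lactate carriers moved apart in Tet1kd cells. Slc16a1, the monocarboxylate transporter MCT1, was at 4584 to 5502 normalized counts in Tet1kd libraries, 5891 to 7432 in Tet2kd libraries and 6053 to 7370 in parental libraries. All Tet1kd libraries lay below the parental ones, and the authors' deposited table gave a log2 fold change of -0.42 (adjusted p 0.00052). Slc16a3, the lactate exporter MCT4 and a hypoxia target, had 1130.0, 1099.7, 1171 and 1232 normalized counts in Tet1kd libraries, 628, 589.9, 694 and 737 in Tet2kd libraries, and 736, 809.8, 867 and 859 in parental libraries. The Tet1kd libraries were all higher than the other 8, and the Tet2kd and parental libraries overlapped. The log2 change in the authors' deposited table was 0.50 in Tet1kd cells (adjusted p 1.22e-06) and -0.31 in Tet2kd cells (adjusted p 0.0296). The Tet2kd call was also made by limma with all libraries (adjusted p 0.0277) but was lost when Tet2kd library a or b, or parental library b, c or d, was left out (limma adjusted p 0.059 to 0.0761). Tet1kd minus Tet2kd was 0.81 (95% interval 0.64 to 0.98, limma adjusted p 5.61e-07).

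**Figure D2:**
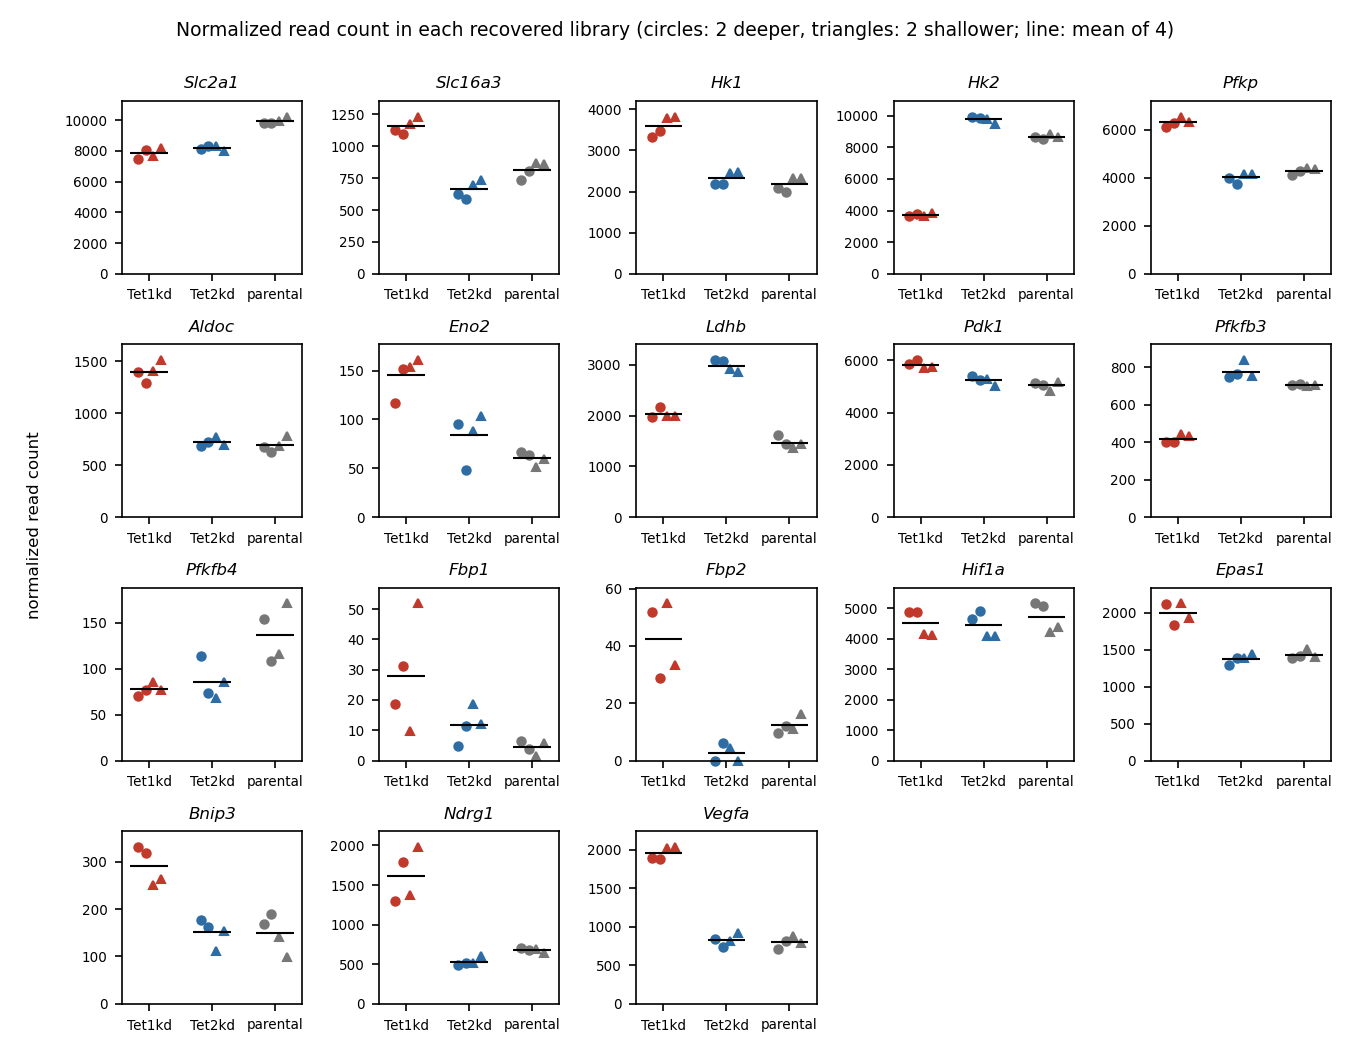
Normalized read count of 18 genes in each recovered library of the Tet1kd, Tet2kd and parental groups, from left to right in each panel, with the 2 deeper libraries as circles, the 2 shallower as triangles and the group mean as a line. Hk2 lies at 3624 to 3817 in Tet1kd libraries and at 8526 to 9931 in all others, and Vegfa shows the opposite order, 1873 to 2036 in Tet1kd libraries against 718 to 917 elsewhere.

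Hexokinases, which phosphorylate glucose on entry, moved in opposite directions in Tet1kd cells. Hk2, the hexokinase known as inducible by hypoxia, had 3624, 3769, 3649.6 and 3817 normalized counts in Tet1kd libraries, 9931, 9839, 9803 and 9472 in Tet2kd libraries, and 8657, 8526, 8860.1 and 8632 in parental libraries. The Tet1kd libraries stood far below all others, with no overlap. Its log2 fold change for Tet1kd cells of -1.22 was the lowest of the 37 genes in the authors' deposited table (adjusted p 3.33e-45). In Tet2kd cells all 4 libraries lay above the parental ones by a small margin. The authors' deposited table gave 0.17 there without passing (adjusted p 0.178), the second deposited test passed it (adjusted p 3.74e-07, authors' deposited table), and limma gave a 95% interval of 0.09 to 0.24 (adjusted p 0.00685). Hk1, the hexokinase of most adult tissues, had 3322, 3474, 3778 and 3821 normalized counts in Tet1kd libraries, 2196, 2187, 2447 and 2473 in Tet2kd libraries, and 2076, 1991, 2339 and 2319 in parental libraries. The Tet1kd libraries were all higher than the rest, and Tet2kd and parental libraries overlapped. The authors' deposited table gave a log2 fold change for Tet1kd cells of 0.72 (adjusted p 1.47e-15) and 0.09 in Tet2kd cells (adjusted p 0.704). Tet1kd minus Tet2kd was -1.39 for Hk2 (95% interval -1.47 to -1.32, limma adjusted p 3.54e-13) and 0.63 for Hk1 (95% interval 0.48 to 0.77, limma adjusted p 1.71e-06).

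Per kilobase of exon, Hk1 made up 52.8 ± 1.51% of the 2 hexokinases in Tet1kd libraries, 21.6 ± 1.42% in Tet2kd libraries and 22.5 ± 1.21% in parental libraries (SD, n = 4 each). The shares depend on the gene length used, here the exon union of GENCODE M21 basic transcripts, 4852 bp for Hk1 and 5614 bp for Hk2. With the union of all annotated transcripts, 8532 bp and 5969 bp, the share of Hk1 was 40.4% in Tet1kd, 14.3% in Tet2kd and 15.0% in parental libraries. The 3 phosphofructokinases held more even shares. Pfkp made up 44.3 ± 2.88% of their reads per kilobase in Tet1kd, 39.5 ± 2.12% in Tet2kd and 40.6 ± 2.56% in parental libraries (SD, n = 4 each), and the 3 groups overlapped. In libraries a and b alone it was 47.3 and 46.0% in Tet1kd cells against 42.8 and 42.9% in parental cells. In libraries c and d it was 43.0 and 40.9% against 38.7 and 38.2%. Pfkm made up 11.1 to 11.9% in Tet2kd libraries, above the 9.11 to 10.6% in parental libraries.

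**Figure D3:**
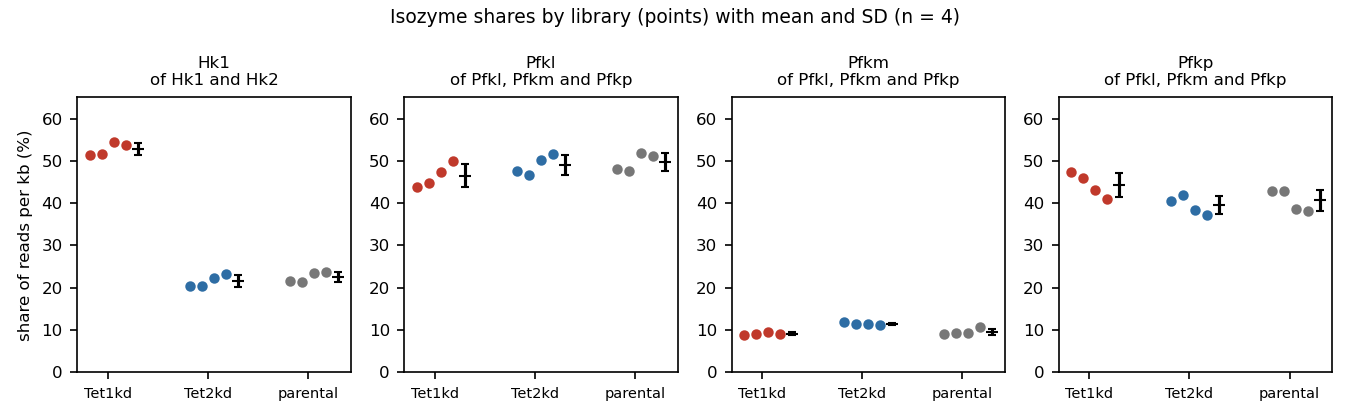
Share of reads per kilobase of exon, in percent, of Hk1 among the 2 hexokinases and of each of the 3 phosphofructokinases, for each library (points) with mean and SD (n = 4), in Tet1kd, Tet2kd and parental cells from left to right. The Hk1 share is 51.5 to 54.5% in Tet1kd libraries and 20.4 to 23.7% in all others, while the phosphofructokinase shares differ far less.

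Hk2 lies on chromosome 6 in a stretch of genes that were lower in Tet1kd cells. Of the 40 nearest genes with a mean of at least 100, 20 on each side, 38 had a log2 fold change below 0 in Tet1kd cells in the authors' deposited table, with a median of -0.80, and 33 were called lower. The median of all 469 such genes on chromosome 6 was -0.21. In Tet2kd cells the median of the same 40 neighbours was -0.00, and 1 was called lower and 1 higher. For the other genes described here, the median of the neighbours lay between -0.14 and 0.15 in Tet1kd cells, including Slc2a3, Tpi1, Gapdh, Eno2 and Ldhb on the same chromosome. Whether the lower Hk2 level shares a cause with its neighbours was not tested.

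**Figure D4:**
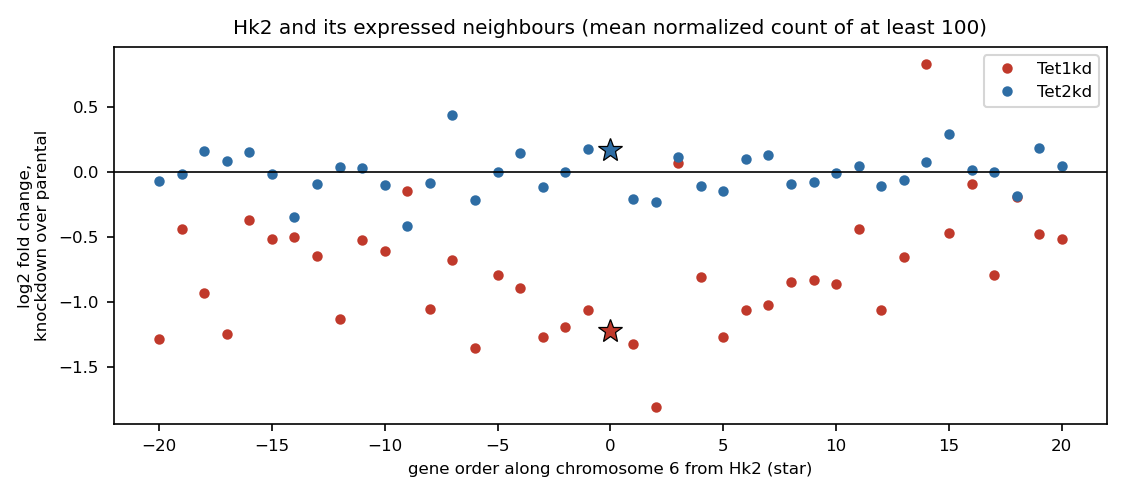
Log2 fold change over parental of Hk2 (stars) and of its 40 nearest expressed neighbours, in gene order along chromosome 6, in Tet1kd cells (red) and Tet2kd cells (blue). In Tet1kd cells 38 of the 40 neighbours lie below 0, with a median of -0.80, and in Tet2kd cells they scatter around 0.

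Of 17 enzymes, 9 were higher and 2 lower in Tet1kd cells (64.7%, against 49.6% of all genes with a mean of at least 100), and 1 was higher in Tet2kd cells (5.88%, against 12.7%). Pfkp, the platelet-type phosphofructokinase, had 6143, 6303, 6553 and 6347 normalized counts in Tet1kd libraries, 4009, 3756, 4145 and 4159 in Tet2kd libraries, and 4110.1, 4301, 4408 and 4370.2 in parental libraries. The Tet1kd libraries stood wholly above the others. Its log2 change in the authors' deposited table was 0.56 in Tet1kd cells (adjusted p 2.95e-10) and -0.10 in Tet2kd cells (adjusted p 0.63), and Tet1kd minus Tet2kd was 0.66 (95% interval 0.57 to 0.75, limma adjusted p 8.37e-09). Pfkm, the muscle-type enzyme, rose by 0.36 on the log2 scale in Tet1kd cells in the authors' deposited table (adjusted p 0.0208). Pfkl, the liver-type enzyme, had 0.34 in that comparison of the authors' deposited table and did not pass (adjusted p 0.0712), while the second deposited test passed it (adjusted p 2.53e-15), as did limma (adjusted p 0.0166). Gpi1, glucose-6-phosphate isomerase, rose by 0.32 and Tpi1, triosephosphate isomerase, by 0.36 in Tet1kd cells, also on the log2 scale of the authors' deposited table. Aldoa, the main aldolase by level, rose by 0.37 there in Tet1kd cells (adjusted p 3.38e-05, authors' deposited table). In Tet2kd cells none of these 6 passed the first deposited test, with log2 fold changes from -0.10 to 0.19 in the authors' deposited table. The second deposited test there passed Pfkp (adjusted p 0.0346), Pfkm (adjusted p 0.0491) and Aldoa (adjusted p 0.0132), per the authors' deposited table.

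Isozymes typical of brain rose most among the enzymes. Aldoc, the aldolase of brain, had 1393, 1286, 1405 and 1509.8 normalized counts in Tet1kd libraries, 686, 722, 768 and 695 in Tet2kd libraries, and 676, 623, 682 and 783 in parental libraries. All Tet1kd libraries stood well above every other library. The authors' deposited table gave a log2 fold change for Tet1kd cells of 1.02 (adjusted p 1.99e-24) and 0.05 in Tet2kd cells (adjusted p 0.902). Eno2, the neuronal enolase, had 117, 152, 154 and 161 normalized counts in Tet1kd libraries, 95.1, 47.9, 88.5 and 104 in Tet2kd libraries, and 66.3, 64.2, 51.9 and 59.5 in parental libraries. Its Tet1kd libraries were all above the rest, while 3 Tet2kd libraries lay above the parental range and 1 below it. Its change in the authors' deposited table was 1.27 on the log2 scale in Tet1kd cells (adjusted p 1.95e-08) and 0.47 in Tet2kd cells (adjusted p 0.508). Without Tet2kd library b, limma gave 0.66 for Tet2kd cells (adjusted p 0.0197), against 0.41 with all libraries (adjusted p 0.239). Tet1kd minus Tet2kd was 0.96 for Aldoc (95% interval 0.80 to 1.12, limma adjusted p 5.47e-08) and 0.84 for Eno2 (95% interval 0.40 to 1.29, limma adjusted p 0.00338). Both stayed minor beside their partners. By deposited means per kilobase, Aldoc was 2.89% of Aldoa plus Aldoc in Tet1kd cells and 1.87% in parental cells, and Eno2 had 54.2 normalized counts per kilobase in Tet1kd cells against 1276 for Eno1.

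Enzymes of lower glycolysis follow. The first deposited test passed 49.6% of all genes with a mean of at least 100 in Tet1kd cells and 12.7% in Tet2kd cells. Pkm, which encodes the pyruvate kinase of most tissues, had 15351, 16162, 16761 and 16073 normalized counts in parental libraries, and its knockdown libraries were not recovered. In the authors' deposited table its log2 fold change was 0.06 in Tet1kd cells (adjusted p 0.833) and 0.06 in Tet2kd cells (adjusted p 0.832). Pgk1, phosphoglycerate kinase, Pgam1, phosphoglycerate mutase, and Eno1, the main enolase, did not pass that test in either knockdown. Their log2 fold changes ran from -0.22 to 0.10 in the authors' deposited tables. The second deposited test passed Eno1 in Tet1kd cells, at -0.22 (adjusted p 6.63e-05, authors' deposited table). Pgam1 had only 214 recovered reads in Tet1kd, 211 in Tet2kd and 219 in parental libraries. Its limma 95% interval was -0.61 to 0.34 in Tet1kd cells and -0.34 to 0.53 in Tet2kd cells. Gapdh, the glyceraldehyde-3-phosphate dehydrogenase often used as a reference gene, was at 267 to 319 normalized counts in Tet1kd libraries, 310.5 to 378 in Tet2kd libraries and 351 to 397 in parental libraries. Its log2 fold change for Tet1kd cells of -0.33 passed in the authors' deposited table (adjusted p 0.0289). The Gapdh counts are uncertain, because 75 pseudogenes match its transcripts at 95% identity or more over at least 200 bases, and its level per kilobase was 256 normalized counts in parental cells, against 12689 for Aldoa. Pgk1 and Ldha have 4 such pseudogenes each, Bnip3 has 3, Eno1 has 2, and Gpi1, Tpi1, Pgam1, Pkm, Ldhb, Bnip3l and Higd1a have 1 each, so reads of these genes could also have been shared with a copy. Other genes matched at the same threshold for Pfkp, Pdha1, Ndrg1, Eno1, Pkm and Higd1a (1 each), Bnip3 (2) and Gapdh (3).

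Among lactate dehydrogenase transcripts, the share of the B subunit was higher in both knockdowns by deposited means. Ldhb, the subunit typical of heart, had 1974, 2173, 1998 and 2000.2 normalized counts in Tet1kd libraries, 3095, 3078, 2920.1 and 2855 in Tet2kd libraries, and 1611, 1448, 1370.2 and 1451 in parental libraries. All Tet2kd libraries were the highest, Tet1kd libraries lay between, and parental libraries were the lowest, with no overlap between groups. In the authors' deposited tables Ldhb rose by 0.47 on the log2 scale in Tet1kd cells (adjusted p 5.53e-06) and by 1.02 in Tet2kd cells (adjusted p 1.00e-28). It was the only gene of the 37 that the deposited test called higher in Tet2kd cells. Tet1kd minus Tet2kd was -0.55 (95% interval -0.67 to -0.43, limma adjusted p 1.05e-06). Ldha, the subunit typical of muscle and a hypoxia target, had 11639, 12523, 12851 and 13018 normalized counts in parental libraries and was not recovered in the knockdowns. In the authors' deposited table it had a log2 fold change for Tet1kd cells of 0.14 (adjusted p 0.188) and -0.07 in Tet2kd cells (adjusted p 0.889). By deposited means per kilobase, Ldhb was 17.6% of both transcripts in Tet1kd cells against 14.6% in parental cells. In Tet2kd cells it was 26.6%, against 14.6% in parental cells. These shares have no spread and were not tested, and protein was not measured.

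Regulators of flux split between higher and lower levels in Tet1kd cells. Pfkfb3 and Pfkfb4 make fructose-2,6-bisphosphate, the activator of phosphofructokinase, and both are known hypoxia targets. Pfkfb3 had 403, 399.6, 442 and 435 normalized counts in Tet1kd libraries, 751, 766, 839.6 and 755 in Tet2kd libraries, and 708, 712, 703 and 708 in parental libraries. The Tet1kd libraries were all far below the others, and the Tet2kd libraries were slightly above the parental ones without overlap. Its log2 change in the authors' deposited table was -0.75 in Tet1kd cells (adjusted p 2.81e-11) and 0.13 in Tet2kd cells, where it did not pass (adjusted p 0.661). Pfkfb4 had 70.03, 77.02, 85.3 and 77.1 normalized counts in Tet1kd libraries, 113, 73.6, 68.5 and 85.6 in Tet2kd libraries, and 154, 108, 116 and 171 in parental libraries. Tet1kd libraries lay below all parental libraries, and Tet2kd libraries overlapped both groups. For Pfkfb4 the authors' deposited table gave -0.83 in Tet1kd cells (adjusted p 0.000789) and -0.69 in Tet2kd cells (adjusted p 0.127). For Tet2kd cells limma called Pfkfb4 lower with all libraries (adjusted p 0.0296), but not without Tet2kd library b, c or d, or parental library a or d (limma adjusted p 0.0518 to 0.0823). Tested directly, Tet1kd minus Tet2kd was -0.89 for Pfkfb3 (95% interval -1.02 to -0.75, limma adjusted p 1.98e-08) and -0.12 for Pfkfb4 (95% interval -0.50 to 0.27, limma adjusted p 0.621).

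The fructose-bisphosphatases, which run the phosphofructokinase step backwards in gluconeogenesis, were scarce in all groups. Fbp1, the liver enzyme, had 18.6, 31.3, 9.75 and 51.8 normalized counts in Tet1kd libraries, 4.89, 11.5, 18.6 and 12.01 in Tet2kd libraries, and 6.29, 3.77, 1.36 and 5.95 in parental libraries, from 123 recovered reads in Tet1kd, 41 in Tet2kd and 19 in parental libraries. The 4 Tet1kd libraries lay above the parental ones but differed among themselves by more than the Tet2kd libraries did. Fbp2, the muscle enzyme, had 51.99, 28.98, 54.8 and 33.2 normalized counts in Tet1kd libraries, 0, 6.21, 4.28 and 0 in Tet2kd libraries, and 9.78, 12.1, 10.9 and 16.4 in parental libraries, from 206 recovered reads in Tet1kd, 10 in Tet2kd and 49 in parental libraries. Tet1kd libraries were all above and Tet2kd libraries all below the parental range. The authors' deposited tables gave Fbp1 a log2 fold change for Tet1kd cells of 2.68 (adjusted p 0.0326) and 1.43 in Tet2kd cells (adjusted p 0.391). For Fbp2 they were 1.78 in Tet1kd cells (adjusted p 1.37e-05) and -2.23 in Tet2kd cells (adjusted p 0.0466, the authors' deposited tables). At 10 reads the size of the Tet2kd value is poorly known. The limma difference Tet1kd minus Tet2kd for Fbp1, 1.10 (95% interval -0.12 to 2.32), did not pass (adjusted p 0.124), but did without Tet1kd library c, where it was 1.50 (adjusted p 0.0426).

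Of the genes for pyruvate entry into mitochondria, Pdk1 alone of 3 passed the first deposited test, in Tet1kd cells. Pdk1, the pyruvate dehydrogenase kinase best known as a HIF target, had 5874, 6008, 5711 and 5748 normalized counts in Tet1kd libraries, 5389.7, 5260.3, 5282 and 5018 in Tet2kd libraries, and 5117, 5056, 4837 and 5161 in parental libraries. Tet1kd libraries were all above the other groups by a small margin. The authors' deposited table gave a log2 fold change for Tet1kd cells of 0.21 (adjusted p 0.0356) and 0.05 in Tet2kd cells (adjusted p 0.887). Pdk3, another such kinase, and Pdha1, the dehydrogenase subunit they phosphorylate, did not pass that test in either knockdown. Their values ran from -0.03 to 0.09 in the authors' deposited tables. The second deposited test passed Pdha1 in Tet1kd cells (adjusted p 0.0296, authors' deposited table). A wider list of 11 genes of pyruvate entry had 2 higher and 3 lower in Tet1kd cells. That was 45.5%, against 49.6% of all genes with a mean of at least 100. In Tet2kd cells 1 was higher (9.09%, against 12.7%). Pdk2, a further kinase, was that gene, with 1.17 in Tet1kd and 0.61 in Tet2kd cells on the log2 scale of the authors' deposited tables.

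The HIF factors differed from each other. Hif1a, the widely expressed oxygen-regulated subunit, had 4865, 4894, 4148 and 4113 normalized counts in Tet1kd libraries, 4647, 4921, 4098 and 4079.8 in Tet2kd libraries, and 5161, 5067, 4216 and 4379 in parental libraries. The 3 groups overlapped, and in each the deeper libraries a and b were above c and d. Its log2 fold changes in the authors' deposited tables were -0.06 in Tet1kd cells (adjusted p 0.782) and -0.09 in Tet2kd cells (adjusted p 0.789). With limma, the 95% interval was -0.24 to 0.12 in Tet1kd cells and -0.26 to 0.09 in Tet2kd cells. Epas1, which encodes HIF-2 alpha, had 2117, 1828, 2123 and 1920.5 normalized counts in Tet1kd libraries, 1287, 1379, 1391 and 1439 in Tet2kd libraries, and 1381, 1406, 1501 and 1405 in parental libraries. The Tet1kd libraries were all above the others, and Tet2kd and parental libraries overlapped. The authors' deposited table gave 0.49 in Tet1kd cells (adjusted p 2.59e-07) and -0.05 in Tet2kd cells (adjusted p 0.891), and Tet1kd minus Tet2kd was 0.54 (95% interval 0.41 to 0.67, limma adjusted p 2.63e-06). HIF protein was not measured in these data.

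Of 8 genes on a list for the control of HIF, 3 were higher and 2 lower in Tet1kd cells (62.5%, against 49.6% of all genes with a mean of at least 100), and 1 was higher and 1 lower in Tet2kd cells (25.0%, against 12.7%). Egln3, a prolyl hydroxylase that HIF itself induces, had log2 fold changes of 0.66 in Tet1kd cells (adjusted p 1.74e-08) and 0.42 in Tet2kd cells (adjusted p 0.00204) in the authors' deposited tables. Egln1, the main oxygen-sensing hydroxylase, was higher in Tet1kd cells (0.55, adjusted p 8.06e-08) and lower in Tet2kd cells (-0.51, adjusted p 0.000166) in the authors' deposited tables. Arnt, the shared partner of the HIF alpha subunits, rose by 0.40 and Hif3a, a further HIF alpha subunit, had -0.81 in Tet1kd cells, both past the test in the authors' deposited table.

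The 7 further hypoxia targets did not move as a block. In Tet1kd cells 3 were higher, 1 was lower and 3 passed in neither direction (57.1% called, against 49.6% of all genes with a mean of at least 100), and in Tet2kd cells 1 was lower (14.3%, against 12.7%). Those shares are close to the background. Vegfa, the main angiogenic growth factor, had 1887, 1873, 2026 and 2036 normalized counts in Tet1kd libraries, 843, 738, 814 and 917 in Tet2kd libraries, and 718, 816, 884 and 794 in parental libraries. The lowest Tet1kd library stood well above the highest of the others, and Tet2kd and parental libraries overlapped. The authors' deposited table gave a log2 fold change for Tet1kd cells of 1.29 (adjusted p 2.71e-40) and 0.04 in Tet2kd cells (adjusted p 0.968). Ndrg1, a stress-induced growth regulator, had 1301, 1789, 1378 and 1982 normalized counts in Tet1kd libraries, 495, 513, 515 and 604 in Tet2kd libraries, and 709, 674, 692 and 644 in parental libraries. The 3 groups did not overlap, with Tet1kd the highest and Tet2kd the lowest, and the Tet1kd libraries varied the most. The log2 fold changes in the authors' deposited tables were 1.25 in Tet1kd cells (adjusted p 7.69e-07) and -0.36 in Tet2kd cells (adjusted p 0.00523). Bnip3, a mitophagy receptor, had 331, 318, 249.8 and 263 normalized counts in Tet1kd libraries, 177, 161, 111 and 155 in Tet2kd libraries, and 168, 189, 142 and 98.1 in parental libraries. Its Tet1kd libraries were all above the others. In the authors' deposited table it rose by 0.96 in Tet1kd cells (adjusted p 1.88e-05), and its Tet2kd value was 0.01 (adjusted p 1.00).

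Of the remaining targets, Higd1a passed the first deposited test as lower in Tet1kd cells and Bnip3l, Ankrd37 and Car9 did not. Higd1a, a mitochondrial protein induced by hypoxia, was at 110.3 to 142 normalized counts in Tet1kd libraries, 138 to 173 in Tet2kd libraries and 138 to 191 in parental libraries. The groups overlapped. It fell in Tet1kd cells, with -0.40 on the log2 scale of the authors' deposited table (adjusted p 0.0121). Bnip3l is the close relative of Bnip3 in mitophagy, Ankrd37 is an ankyrin-repeat protein and HIF target, and Car9 is the tumour-associated carbonic anhydrase. In Tet1kd cells they had -0.17, 0.08 and -0.26 on the log2 scale of the authors' deposited table. Their values in Tet2kd cells were -0.02, -0.15 and 0.39, and none passed the first deposited test in either knockdown. The second deposited test passed Bnip3l in Tet1kd cells (adjusted p 0.00381, authors' deposited table). Ankrd37, with 4 motif matches in its promoter window, was at 60.5 to 144 normalized counts in Tet1kd libraries, 79.6 to 99.95 in Tet2kd libraries and 90.6 to 111 in parental libraries. Car9 had 60 reads in all Tet1kd libraries, 74 in Tet2kd and 64 in parental libraries, and the limma 95% interval was as wide as -1.24 to 0.78 on the log2 scale in Tet1kd cells. A further list of 22 known hypoxia targets had 6 higher and 7 lower in Tet1kd cells (median -0.02). In Tet2kd cells 2 of the 22 were higher and 2 lower (median -0.01). The shares called were 59.1% and 18.2%, against 49.6% and 12.7% of all genes with a mean of at least 100. Kdm3a, a histone demethylase and much-used hypoxia marker, had -1.67 on the log2 scale in Tet1kd cells, against 1.74 for Car12, a carbonic anhydrase, both past the test in the authors' deposited table.

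Tested directly between the knockdowns with limma, 14 of 31 recovered genes were higher in Tet1kd than in Tet2kd cells and 5 were lower, 61.3%, against 50.9% of all 14511 genes tested (25.4% higher and 25.5% lower). The difference was widest for Fbp2, 4.61 on the log2 scale from few reads, and then for Ndrg1 (1.58, 95% interval 1.34 to 1.82, limma adjusted p 2.07e-08), Hk2 and Vegfa (1.24, 95% interval 1.08 to 1.40, limma adjusted p 3.86e-09). Bnip3 differed by 0.95 (95% interval 0.55 to 1.35, limma adjusted p 0.000617) and Pdk1 by 0.16 (95% interval 0.07 to 0.24, limma adjusted p 0.00337). For Hif1a the difference was 0.02 with an interval of -0.16 to 0.20 (limma adjusted p 0.849). Genes called in Tet1kd cells that did not pass the deposited test in Tet2kd cells had intervals of differing width there. The limma 95% interval for Tet2kd over parental, on the log2 scale, was -0.21 to 0.00 for Pfkp and -0.06 to 0.24 for Hk1, both of which passed once the deeper or shallower libraries were a term (limma adjusted p 0.0119 for Pfkp and 0.0431 for Hk1). It was -0.12 to 0.23 for Aldoc, -0.14 to 0.23 for Vegfa and -0.18 to 0.07 for Epas1. It was wider still for Bnip3, -0.41 to 0.48, and for Eno2, -0.09 to 0.91.

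**Figure D5:**
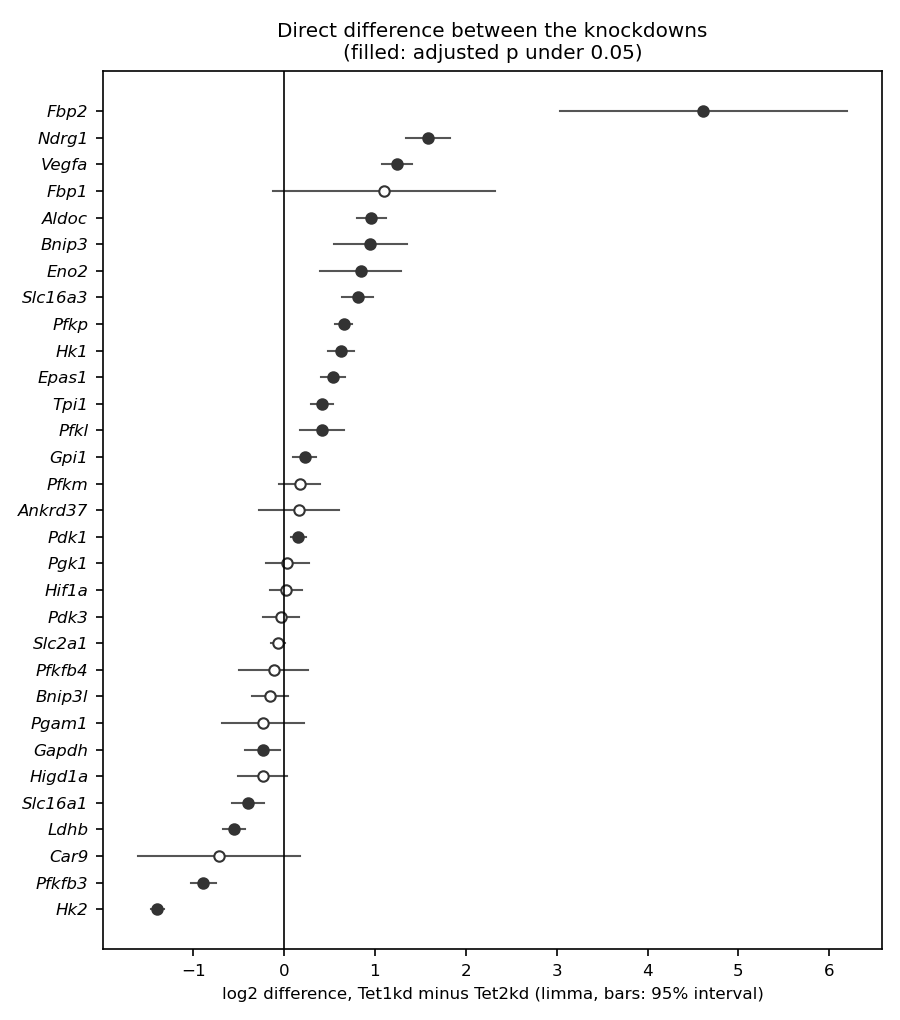
Log2 difference, Tet1kd minus Tet2kd, of the 31 genes recovered in every library, with 95% intervals from limma. Filled points passed an adjusted p of 0.05: 14 genes were higher in Tet1kd cells and 5 were lower.

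Exon use was compared by the authors with DEXSeq, which tests each exon bin, a stretch of exon shared by the same transcripts, against the rest of its gene. Of the tested bins of these genes, 39 of 664 were called in Tet1kd cells (5.87%), against 2.56% of all bins. In Tet2kd cells 21 of 656 were called (3.20%), against 2.45% of all bins. Both backgrounds count tested bins at any level, while many of these genes are well expressed. A share at a matched level was not computed, so the excess cannot be read as particular to these genes. In Tet1kd cells 16 bins had higher and 23 lower use, in 16 genes, and in Tet2kd cells 11 had higher and 10 lower use, in 9 genes. The bins are known here by number only, and both comparisons share the parental libraries. In Slc2a3, bin 14 of 26 had higher use in both knockdowns, with an adjusted p listed as 0 in Tet1kd cells and 1.36e-07 in Tet2kd cells in the authors' deposited tables. Pkm had 6 called bins of 14 in Tet1kd cells and 3 in Tet2kd cells. Pkm bin 13 had higher use in both, with an adjusted p listed as 0 in Tet1kd cells and 0.0195 in Tet2kd cells in the authors' deposited tables, and bin 7 had lower use in Tet2kd cells (adjusted p 7.53e-09, authors' deposited table). Hif1a, with no gene-level call, had higher use of its last listed bin, 23 of 23, in Tet1kd cells (adjusted p 0.0337) and in Tet2kd cells (adjusted p 9.31e-11) in the authors' deposited tables. Which Pkm bins are the exons that distinguish the muscle forms of the enzyme was not analysed here.

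Other genes of glucose metabolism were read from wider lists. Of 19 other isozymes and carriers of glycolysis tested, 2 were higher and 3 lower in Tet1kd cells (26.3%, against 30.4% of all genes tested). Of 20 tested, 1 was higher in Tet2kd cells (5%, against 7.14%). Slc2a8, an intracellular glucose transporter, was higher in both knockdowns, with log2 fold changes of 0.57 in Tet1kd and 0.34 in Tet2kd cells in the authors' deposited tables. Pklr, the liver and red cell pyruvate kinase, had -1.64 in Tet1kd cells (adjusted p 4.47e-05, authors' deposited table). Of 5 pentose phosphate genes tested, 1 was lower in Tet1kd cells (20%, against 49.6% of all genes with a mean of at least 100). It was Rpia, the ribose-5-phosphate isomerase (-1.49, authors' deposited table). Of the same 5 in Tet2kd cells, 0 passed the first deposited DESeq test, 0 had an unadjusted p under 0.05 there, and 0 passed in the second deposited test or in limma. Of 17 genes of the citric acid cycle, 6 were higher and 2 lower in Tet1kd cells. That was 47.1%, against 49.6% of all genes with a mean of at least 100. In Tet2kd cells 0 passed the first deposited DESeq test, with 2 at an unadjusted p under 0.05, while the second deposited test called 4 and limma 1 of 16. The 2 lower genes in Tet1kd cells were Suclg1 and Suclg2, subunits of succinyl-CoA ligase, with -0.89 and -0.92 in the authors' deposited table. Suclg1 is also 1 of the 40 neighbours of Hk2 in the stretch of chromosome 6 described above.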

How the data were processed

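RNA of Tet1kd, Tet2kd and parental V6.5 cells was poly(A)-selected and sequenced on SOLiD instruments per the labels' protocols. Per the submitters' processing notes, TopHat2 2.0.0, SAMtools 0.1.18 and DESeq were used, with mm9 and NCBIM37. Whether reads were counted by strand or shared between copies of a gene was not stated in the labels. The authors deposited, per the file headers, a gene table for each knockdown against parental with group means of size-factor normalized read counts (a signal, not raw counts), the fold ratio, its log2 and p-values of 2 tests with adjusted p-values. The first adjusted p-value is the main test here, at 0.05. A deposited exon table from DEXSeq holds bin means, log2 exon use written as parental over knockdown (its sign was turned here), p-values and a dispersion score.

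Because the deposited means carry 15 digits and are sums of whole reads divided by library size factors, reads per library were recovered as the whole numbers that give the mean. From the Tet1kd table alone, 21575 of 21679 parental genes were answered and 21574 of these equalled the solution from both tables. Knockdown means above 10000 were not attempted, so recovered genes held 69.9% of Tet1kd and 71.6% of Tet2kd reads. For highly expressed knockdown genes the search was limited to libraries within 60% or 20% of the group mean, which favours solutions with a small spread. Pairs of libraries of a group differed by more than counting noise, with a mean chi-square per gene of 2.34 to 20.1. Libraries c and d were the closest pair in each group (2.34 to 3.66), and whether any were prepared from the same culture is not shown by this. Library values are on a common scale of median-of-ratio size factors over 12 libraries. limma 3.58.1 (R 4.3.3) with a mean-variance trend was run on log2(normalized count + 0.5) for genes with a mean of at least 10. P-values were adjusted by Benjamini-Hochberg over all genes tested. Tet1kd minus Tet2kd was fitted on all 3 groups with the common size factors. Each knockdown over parental was fitted on those 2 groups alone, with the authors' size factors of that comparison, which differ from the common ones. The script was tested on simulated data. Tables were handled in Python 3.11.15 with numpy 2.4.6, pandas 2.3.3 and scipy 1.17.1. Copies were searched with BLAST 2.17.0, and exon lengths came from GENCODE M21. Motifs were counted in RefSeq promoter windows of GRCm38.p6.

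Library values are printed for genes past the adjusted p with an absolute log2 fold change of at least 0.5 in either knockdown, and for Slc2a1, Slc2a3, Hk2, Pkm, Ldha, Pdk1, Hif1a and Epas1. The other genes are given by range or fold change. From each context list at most 4 genes with the smallest adjusted p were open to naming. The genes and lists were chosen with earlier results of these data known. Count models were planned as alternatives but not run, since a count table was not used here, and the fits on recovered reads are alternatives beside the deposited test.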

Additional observations from a re-analysis of the deposited data

Results flagged for a closer look

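Of 101 groups of 4 libraries checked, 2 held a library far from the other 3. For independent values about 1 in 20 groups would be flagged. Libraries a and b deviated together, as did c and d, and recovery favoured a small spread in highly expressed knockdown genes. The 2 flagged groups therefore cannot be set against that rate. Ldhb had 2173 normalized counts in 1 Tet1kd library, against 1974, 1998 and 2000 in the other Tet1kd libraries. All 4 stayed above the highest parental library. Pfkfb3 had 839.6 normalized counts in 1 Tet2kd library, against 751.4, 755.3 and 765.5 in the other Tet2kd libraries.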

How the results depend on the processing

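The calls for Tet2kd depended on the test. The deposited test called 1638 genes in Tet2kd cells, the second deposited test 4171, limma 2675, limma with a pseudocount of 5 2692, and limma with the deeper or shallower libraries as a term 5324. That term was added after seeing the data. Of the 37 genes, 1 was higher and 4 lower in Tet2kd cells by the deposited test. By the second deposited test 4 were higher and 5 lower. Of the 31 that limma tested, 2 were higher and 4 lower, and likewise 2 and 4 with a pseudocount of 5. With the library term 6 were higher and 6 lower. These counts show the dependence on the test only and are not set against a share over all genes. Leaving out 1 library in turn, limma called 7279 to 7613 genes in Tet1kd cells, 17 to 17 of the described genes higher and 6 to 8 lower. In Tet2kd cells it called 1949 to 2380 genes, 2 to 3 higher and 2 to 3 lower of those described. With all libraries 4 were lower, and without Tet2kd library b or parental library d 2 were. Between the knockdowns it called 6820 to 7392 genes, 14 to 15 higher and 4 to 5 lower of those described. No called value changed direction. Leaving out 1 library turned the sign of values that had not passed: Bnip3 in Tet2kd cells ran from -0.151 to 0.174 and Vegfa from -0.0123 to 0.0959, and Tet1kd minus Tet2kd ran from -0.210 to 0.0296 for Pfkfb4 and from -0.0196 to 0.0733 for Hif1a. Of the alternatives for single genes, 16 gained and 10 lost a call, the losses being limma calls of Slc16a3 and Pfkfb4 in Tet2kd cells. Hif1a passed only with the library term, at a limma adjusted p of 0.0471 in Tet1kd and 0.02 in Tet2kd cells. Ldha passed in Tet1kd cells in the second deposited test (adjusted p 0.0323, authors' deposited table). The cause was not tested. No paired analysis was possible because the deposited columns are group means and recovered libraries carry no replicate number. The library term above groups libraries by depth only. DESeq2, edgeR and the replicate block were not run. Depth limits Fbp1, Fbp2 and Car9, with few reads.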
